A study of Mus musculus with 18 samples.

Results

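A set of 9 enzymes of heme metabolism were described in mouse liver by their mRNA levels. They were taken by gene symbol from a table of 37303 genes and all 9 were found. Of these, 8 make heme: Alas1, Alas2, Alad, Uros, Urod, Cpox, Ppox and Fech. The remaining 1, Hmox1, breaks it down. The table gave each gene a single FPKM, a level scaled to transcript length and to the reads mapped, in each of 6 groups. Cuffdiff estimated it from 3 livers together, with a lower and an upper bound. Values are therefore given with these bounds in place of an SD, and no p-value could be computed.

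The study asked how loss of either of 2 stress response genes alters the response of the liver to asparaginase, an anti-leukemic enzyme drug that depletes asparagine and, less so, glutamine. GCN2 (gene symbol Eif2ak4) is a kinase that senses amino acid shortage and acts on eIF2, after which more of the transcription factor ATF4 is translated. The 18 mice were all of the C57BL/6J background, of either sex, and carried no deletion (WT), a homozygous deletion of Gcn2 (Gcn2-/-) or a homozygous deletion of Atf4 (Atf4-/-). The paper describes both deletions as global, that is of the whole body. In each genotype 3 mice received 8 daily intraperitoneal injections of asparaginase at 3 IU per gram body weight (ASNase) and 3 received phosphate buffered saline (PBS), and by the labels livers were taken 7.5 h after the last injection. By the labels the youngest mice were 8 weeks old, and the oldest 12 weeks in one place and 16 weeks in another. There was 1 male of 3 mice in WT PBS, Gcn2-/- PBS and Gcn2-/- ASNase, and there were 2 of 3 in WT ASNase, Atf4-/- PBS and Atf4-/- ASNase. The balance of the sexes thus differed between the WT groups, between Atf4-/- and WT under PBS, and between Gcn2-/- and WT under ASNase.

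The groups are named by their labels. Atf4 itself was at 32.3 and 29.3 FPKM in the Atf4-/- PBS and ASNase groups and between 50.4 and 68.1 in the others, with bounds that overlapped between Atf4-/- PBS (19.1 to 45.5) and WT PBS (29.7 to 71.1). Eif2ak4 was at 2.31 and 2.96 FPKM in the Gcn2-/- groups and between 2.19 and 3.14 in the others, so its level over the whole gene did not set the Gcn2-/- groups apart. The supplement of the study describes the Gcn2 deletion as the loss of a single exon, and a gene-wide FPKM also counts reads from the exons that remain, so the Eif2ak4 level does not check the Gcn2-/- labels. The same supplement describes Atf4 as absent by read density in Atf4-/- mice, which the Atf4 level in this table does not show, so it does not check those labels either. The liver transcripts Apoa2 and Ttr were abundant in every group (3546 to 17967 and 854 to 5131 FPKM), while Alb, the albumin gene, had no Cuffdiff estimate in any group. The summed level of 7 skeletal muscle genes set the genotypes apart, with at least 683 FPKM in either WT group, at most 8.64 in either Gcn2-/- group and from 52.7 to 95.9 with Atf4 deleted.

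Heme is an iron-bearing ring that cytochromes P450, catalase, respiratory chain cytochromes and hemoglobin need. Its synthesis begins in the mitochondrion with 5-aminolevulinate synthase (ALAS), which joins glycine and succinyl-CoA and sets the rate of the pathway, passes through the cytosol, and ends again in the mitochondrion where ferrochelatase inserts iron. Vertebrates carry a housekeeping ALAS gene, Alas1, which in liver is repressed by heme and induced by drugs and fasting, and an erythroid one on the X chromosome, Alas2, known for its expression in developing red cells under the factors GATA1 and KLF1. Heme oxygenase 1 opens the ring to give biliverdin, iron and carbon monoxide. Its gene, Hmox1, is repressed by BACH1, induced through NRF2 by oxidative and other stress, and abundant in macrophages that clear old red cells.

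Because the 2 ALAS genes are read here as separate genes, the stretch of 200 bases before their RefSeq start sites is printed beside that of Hba-a1, the alpha globin gene, as an erythroid example. All are from RefSeq on GRCm38.p6 and run 5′ to 3′ on the strand of the gene. They lie at chr9:106247955-106248154 (minus strand) for Alas1, at chrX:150547217-150547416 (plus strand) for Alas2 and at chr11:32283472-32283671 (plus strand) for Hba-a1. Capitals mark the GATA motifs AGATAA and TGATAA and the motif CACCC, which KLF factors bind, on either strand, and overlapping matches run together.
Alas1: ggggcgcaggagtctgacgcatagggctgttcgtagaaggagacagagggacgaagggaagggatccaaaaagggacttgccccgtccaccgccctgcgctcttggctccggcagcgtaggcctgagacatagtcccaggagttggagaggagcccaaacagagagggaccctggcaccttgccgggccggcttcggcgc
Alas2: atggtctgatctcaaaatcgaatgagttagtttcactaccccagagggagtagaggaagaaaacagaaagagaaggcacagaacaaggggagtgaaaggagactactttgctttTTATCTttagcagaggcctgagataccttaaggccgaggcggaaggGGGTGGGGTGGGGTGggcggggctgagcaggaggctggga
Hba-a1: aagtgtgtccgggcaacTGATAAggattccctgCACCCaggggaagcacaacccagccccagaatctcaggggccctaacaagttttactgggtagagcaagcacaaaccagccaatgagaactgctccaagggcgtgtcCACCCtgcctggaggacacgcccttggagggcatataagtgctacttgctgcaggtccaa
The Alas2 stretch held AGATAA on the minus strand with its first base 86 bases before the start, and CACCC on the minus strand 3 times within the last 40 bases. The Hba-a1 stretch held TGATAA and 2 copies of CACCC. None of these letters occurred in the Alas1 stretch printed here. Of 32851 such stretches, 13.2% held a GATA motif and 4.87% held a GATA motif with CACCC, while CACCC alone was in 45.5%, so that the match is a description and not a site shown to be bound. Entries were found for 7 of the 9 genes, without Fech and Hmox1. Among the other synthesis genes, Cpox held the same combination, with TGATAA 86 bases and CACCC 135 and 6 bases before its start, all on the minus strand, and the second start of Uros held TGATAA 68 bases before, without CACCC.

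Alas1 (ENSMUSG00000032786, chr9:106233455-106248654, minus strand, GENCODE M21 on GRCm38) was the most abundant of the 9 genes in every group. It was at 282 FPKM in WT PBS (bounds 126 to 439) and 393 in WT ASNase (162 to 624). In the Gcn2-/- groups it was at 360 under PBS (125 to 594) and 233 under ASNase (108 to 357), and in the Atf4-/- groups at 317 (103 to 532) and 183 (70.2 to 296). The value after ASNase was thus higher than under PBS in WT and lower in both deletion strains, by log2 differences of 0.48, -0.63 and -0.79. The bounds overlapped in all 15 pairs of groups, so the order of the 6 levels does not exceed their error. The largest gap, Atf4-/- ASNase against WT ASNase, was -210 FPKM, less than the combined error of 257 (the root of the summed squares of the distances from each value to its upper bound).

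Alas2 (ENSMUSG00000025270, chrX:150547375-150570638, plus strand) was at 37.2 FPKM in WT PBS (8.63 to 65.8), 31.4 after ASNase in WT (8.00 to 54.9) and 27.6 in Gcn2-/- PBS (6.13 to 49.0). It was at 6.52 in Gcn2-/- ASNase (0 to 14.4), 36.6 in Atf4-/- PBS (5.92 to 67.2) and 3.13 in Atf4-/- ASNase (0 to 9.12). The 4 groups given PBS or of WT genotype lay together and the 2 deletion groups given ASNase lay below them, yet the bounds of every pair of groups overlapped.

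**Figure D1:**
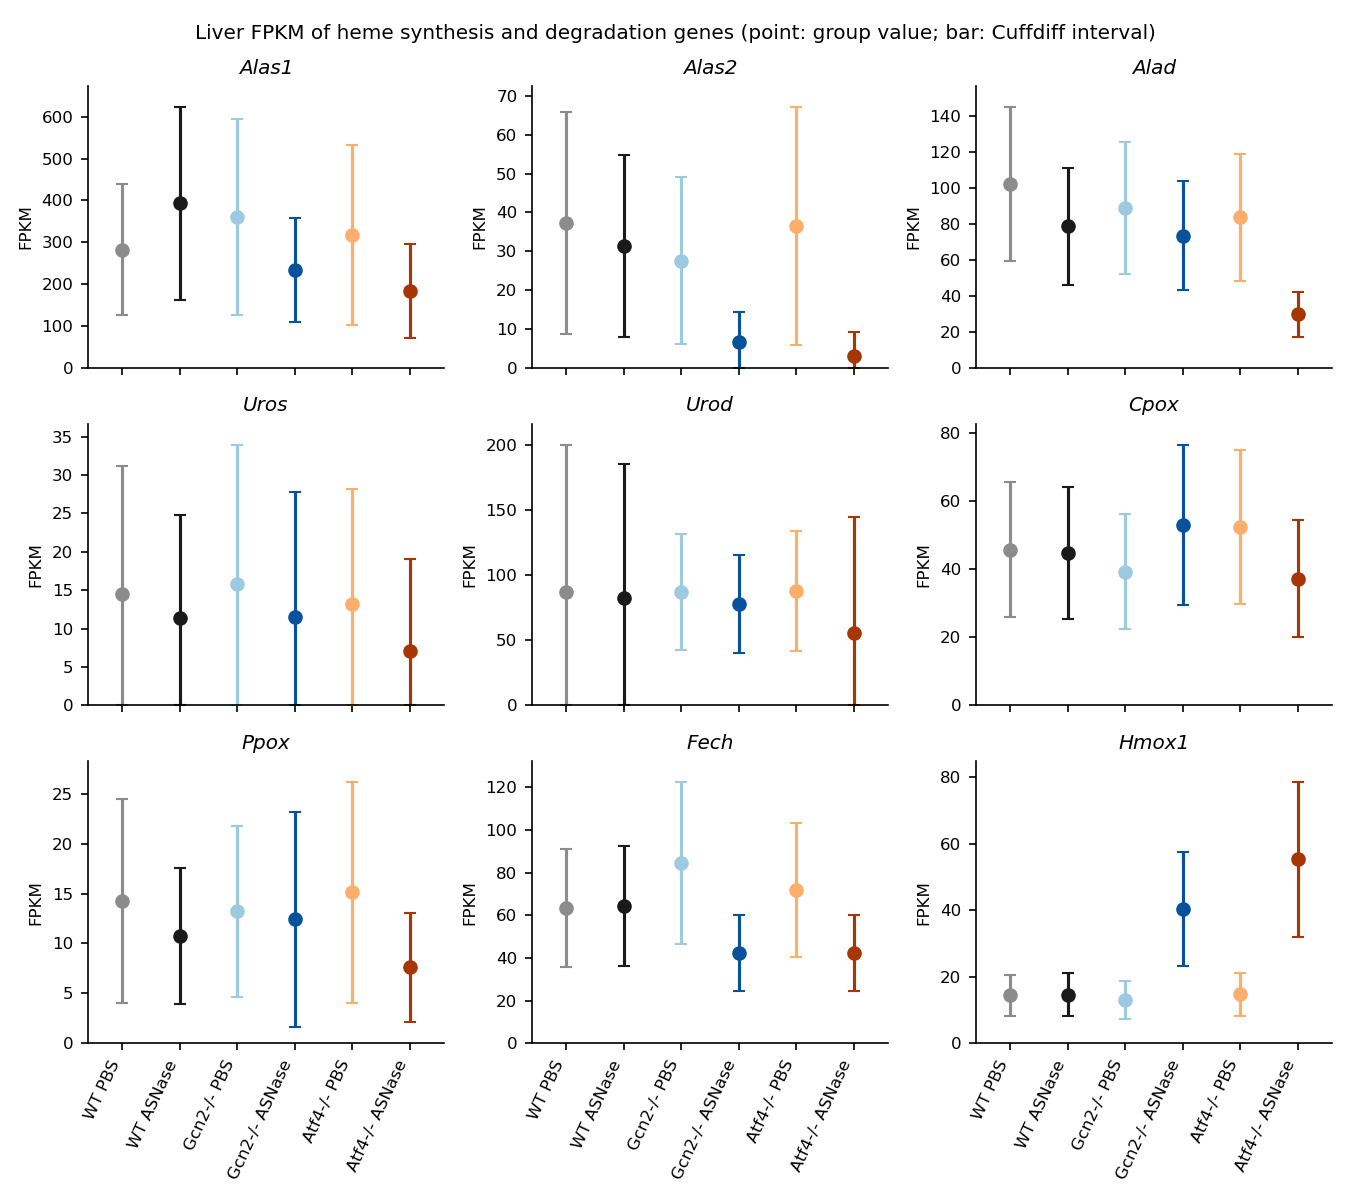
FPKM of each of the 9 genes (y axes, linear from 0) in the 6 groups (x axis), with the Cuffdiff bounds as bars. Hmox1 in Gcn2-/- ASNase (40.3) and Atf4-/- ASNase (55.3) lies above the other 4 groups with no overlap of bounds, Alad in Atf4-/- ASNase (29.7) lies below the other 5, and the bounds of the other 7 genes overlap throughout.

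Differences were taken between values of log2(FPKM + 0.1), which shrinks those of genes with low levels. The word called is used of a gene when both values were above 0 with the status OK, either was over 3 FPKM, the log2 difference was over 1.5 in size (2.83-fold) and the bounds did not overlap. All 9 genes had the status OK and over 3 FPKM in every group, so none was lost to this filter.

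After ASNase, Alas2 differed by -0.24 on the log2 scale in WT, -2.06 in Gcn2-/- and -3.51 in Atf4-/- livers. The last 2 were past the fold limit but were not called because the bounds overlapped. Past the limit in the lower direction alone were 0.264% of the genes tested in WT, 3.57% in Gcn2-/- and 7% in Atf4-/- livers. In Gcn2-/- livers the difference of -21.1 FPKM was below its combined error of 22.8, and in Atf4-/- livers the difference of -33.4 FPKM was above its combined error of 31.2. Set against WT ASNase, the log2 differences were -2.25 in Gcn2-/- ASNase and -3.29 in Atf4-/- ASNase, and these comparisons share the ASNase values with those above.

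The ratio of the 2 ALAS values is given as a description only, since neither gene was called in any comparison. Alas1 FPKM was 7.59 times that of Alas2 in WT PBS and 8.68 times in Atf4-/- PBS, and it was 12.5 times in WT ASNase and 13.1 times in Gcn2-/- PBS. It was 35.7 times in Gcn2-/- ASNase and 58.6 times in Atf4-/- ASNase. Alas2 made up between 7.12% and 11.6% of the summed ALAS level in the first 4 of these groups, 2.72% in Gcn2-/- ASNase and 1.68% in Atf4-/- ASNase. The Alas2 bounds ran from 0 to 14.4 in Gcn2-/- ASNase and from 0 to 9.12 in Atf4-/- ASNase, so the ratios and shares of these groups are poorly fixed.

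The globins, whose RNA remains in young red cells after the nucleus is lost, were examined beside Alas2. Hba-a1, Hba-a2, Hbb-bs and Hbb-bt summed to 248 FPKM in WT livers under PBS and 125 under ASNase, and the PBS sums were 133 in Gcn2-/- and 202 in Atf4-/- livers. The sum was 5.25 in Gcn2-/- ASNase and 4.39 in Atf4-/- ASNase, 25.4-fold and 46.0-fold below the PBS group of the same strain, against 1.98-fold in WT. All 4 genes were called lower after ASNase in both deletion strains (2.13% and 4.63% of all genes tested were) and none in WT. The near-identical alpha globin copies can exchange reads, and so can the beta globin copies, so the sum is firmer than each gene. Expressed as a share of the globin sum, Alas2 was between 15% and 25.2% in the other groups, 124% in Gcn2-/- ASNase and 71.2% in Atf4-/- ASNase. The fold by which Alas2 was lower in value, 4.23 in Gcn2-/- and 11.7 in Atf4-/- livers, was smaller than that of the globins. The Alas2 bounds ran from 0 to 14.4 in Gcn2-/- ASNase and from 0 to 9.12 in Atf4-/- ASNase. Those of Hba-a1, Hba-a2 and Hbb-bt also began at 0 there, so the shares and folds of these groups are poorly fixed. Whether these livers held fewer red cells or less of these RNAs per cell cannot be told apart in bulk tissue.

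Other erythroid markers except Klf1 were at or near 0. Of the 15 genes of the list, 14 were matched. Slc4a1, Epb42, Gata1, Rhag, Kel, Ermap and Tspo2, which mark red cell precursors and their membranes, were under 0.3 FPKM in every group. Klf1, an erythroid transcription factor, lay between 2.36 and 3.86 FPKM and was highest in Atf4-/- ASNase, where Alas2 was lowest. Alas2 was thus measured at 27.6 FPKM or more in 4 groups in which the precursor markers other than Klf1 were near 0.

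**Figure D2:**
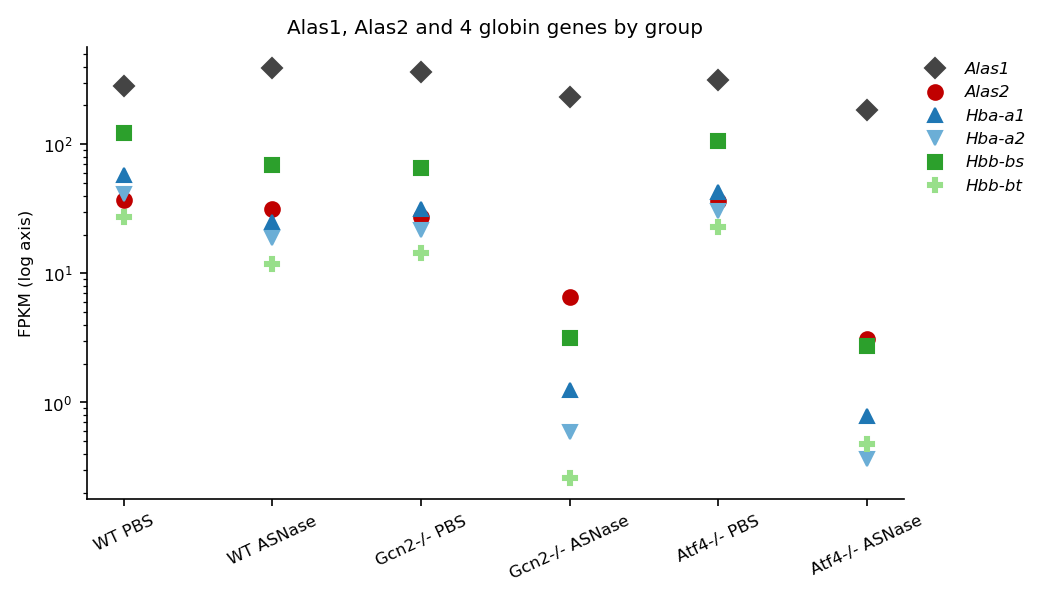
FPKM on a log axis (y) of Alas1, Alas2 and 4 globin genes in the 6 groups (x), with 1 point for the pooled value of each group. All 4 globins and Alas2 are lowest in Gcn2-/- ASNase and Atf4-/- ASNase, while Alas1 stays between 183 and 393. In those groups Alas2 (6.52 and 3.13) is higher in value than each globin, with bounds that overlap.

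A further limit touches Alas2. The table assigned it a locus of 124.4 kb that it shared with Apex2 and Pfkfb1, where the gene itself in GENCODE M21 is much shorter. Apex2, on the opposite strand, shares 311 of the 2403 exon bases of Alas2, or 12.9%, and the libraries did not mark strand, so reads there cannot be told apart. Apex2 was between 2.94 and 4.84 FPKM, and Pfkfb1, which shares no exon base with Alas2, between 15.2 and 21.6. Neither was lower in both ASNase deletion groups than in all others.

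The genes closest to each pattern over the 6 groups were ranked by the root mean square distance of centred log2 values among 9815 genes. Nearest to Alas2 were Ugt2b1, Cyp1a2, Cyp4f14, Slc22a30 and Ugt3a1, at distances from 0.160 to 0.208. Ugt2b1 and Ugt3a1 conjugate drugs and steroids, Cyp1a2 and Cyp4f14 are cytochromes P450, and all 5 are known as liver genes. Cyp1a2 read 302, 249, 159, 40.1, 256 and 23.8 FPKM in the order of WT, Gcn2-/- and Atf4-/- livers, each under PBS and then ASNase. By this distance, which also counts the size of the swing between groups, Hba-a1 ranked 1546 and Hba-a2 3361 for likeness to Alas2. By Pearson's r over the same 6 pooled groups, which ignores that size, they were at 0.984 and 0.985, against 0.989 to 0.996 for the 5 nearest genes. Nearest to Alas1 were Osbpl1a, Fam126b, Rnf19b, Rbm47 and Chn2, at distances from 0.046 to 0.090. With 6 pooled groups these are descriptions of order only.

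Alad (ENSMUSG00000028393, chr4:62509169-62519918, minus strand), whose enzyme joins 2 aminolevulinate molecules to porphobilinogen, was the synthesis gene with the clearest difference. It was at 102 FPKM in WT PBS (59.5 to 145), 78.8 after ASNase in WT (46.2 to 111), 88.9 in Gcn2-/- PBS (52.0 to 126) and 73.6 in Gcn2-/- ASNase (43.3 to 104). In Atf4-/- livers it was at 83.9 under PBS (48.6 to 119) and 29.7 under ASNase (17.0 to 42.3). Its bounds in Atf4-/- ASNase lay below those of each of the other 5 groups, and those 5 overlapped among themselves. The log2 difference after ASNase was -1.496 in Atf4-/- livers, just short of the fold limit (it was 2.827-fold), against -0.38 in WT and -0.27 in Gcn2-/- livers. Against WT ASNase the Atf4-/- ASNase level differed by -1.41. Alad was therefore not called, while its bounds were separate, as were those of 8.03% of genes tested in Atf4-/- ASNase against PBS and 9.01% in Atf4-/- against WT under ASNase.

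Uros, whose enzyme closes the linear tetrapyrrole into the ring, lay between 7.05 FPKM (Atf4-/- ASNase) and 15.8 (Gcn2-/- PBS). Each lower bound of Uros was 0. Its table locus spanned 195.3 kb and held Bccip (87.8 to 113 FPKM) and Dhx32 as well, so its differences are in doubt.

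Urod, which removes carboxyl groups from the ring, was between 86.6 and 87.9 FPKM in the PBS groups of the 3 strains. After ASNase it was at 82.2 in WT, 77.5 in Gcn2-/- and 55.6 in Atf4-/- livers. The value in Atf4-/- ASNase was the lowest, though its bounds ran from 0 to 144. Cpox, which takes the pathway back toward the mitochondrion, varied least, from 37.2 (Atf4-/- ASNase) to 53.0 (Gcn2-/- ASNase), a 1.43-fold range. Ppox, which oxidizes the ring before iron is added, lay between 7.59 (Atf4-/- ASNase) and 15.1 (Atf4-/- PBS). It shares 791 of 4515 exon bases, 17.5%, with B4galt3 on the opposite strand (6.96 to 10.2 FPKM), whose level was highest where Ppox was lowest.

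Fech (ENSMUSG00000024588), the ferrochelatase that inserts iron, was at 63.5 FPKM in WT PBS (35.8 to 91.2) and 64.4 in WT ASNase (36.4 to 92.4). It was at 84.6 in Gcn2-/- PBS (46.7 to 122), 42.2 in Gcn2-/- ASNase (24.3 to 60.0), 71.9 in Atf4-/- PBS (40.3 to 103) and 42.1 in Atf4-/- ASNase (24.4 to 59.9). The values of the 2 deletion strains after ASNase were nearly equal and the WT values were too. The log2 difference was -1.002 in Gcn2-/- and -0.77 in Atf4-/- livers against 0.02 in WT. In Gcn2-/- livers the difference of -42.4 FPKM was just over its combined error of 41.8, in Atf4-/- livers -29.7 FPKM was under 36.3, and the bounds overlapped in both.

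Read as a set, none of the 8 synthesis genes was called in any of the 7 comparisons, where between 0.881% and 8.25% of all genes were, so that 0 calls among 8 genes is near the background. In WT livers 6 of 8 had a lower value after ASNase (51% of all genes tested did), with a median log2 difference of -0.16 against -0.01 for all genes. In Gcn2-/- livers 7 of 8 were lower (48.5% of all genes), with a median of -0.36 against 0.02. In Atf4-/- livers 8 of 8 were lower (46.2% of all genes), with a median of -0.84 against 0.08, a range from -3.51 for Alas2 to -0.49 for Cpox. Without Alas2 the medians were -0.08, -0.27 and -0.79, and they were the same with Alas2 kept and Uros, whose level is in doubt, left out (5, 6 and 7 of 7 genes lower, a choice made after seeing the data). Scaling to equal summed FPKM moved every gene by the same amount, up in WT (0.15) and Gcn2-/- livers (0.22) and down in Atf4-/- livers (-0.28), and with it Urod and Cpox turned to higher values in WT livers and Urod and Ppox in Gcn2-/- livers. Set against WT ASNase, 5 of 8 were lower in Gcn2-/- ASNase (median -0.09) and 8 of 8 in Atf4-/- ASNase (median -0.65), where 46.4% and 46.1% of all genes were. Hepatocyte markers moved in value with the synthesis genes. Of the 7 such markers eligible in the deletion strains, 5 had a lower value after ASNase in Gcn2-/- livers (median -0.99) and 6 in Atf4-/- livers (median -0.67), and 6 of 8 did in WT (median -0.26), with no call. Ttr was at 4950 FPKM under PBS and 1749 after ASNase in Gcn2-/- livers and at 3541 and 854 in Atf4-/- livers. Apoa2 was at 13637 and 3546 in Atf4-/- livers, while Tat, the tyrosine aminotransferase, was higher in value after ASNase in both strains (1987 against 613 and 2013 against 952). The part of these hepatocyte levels in the synthesis genes' values was not tested. A lower value without a call is a count of directions and does not show that any single gene fell.

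With the values as deposited, the PBS groups gave no such lean. Against WT PBS, 4 of 8 synthesis genes were lower in Gcn2-/- PBS and 3 of 8 in Atf4-/- PBS (39.9% and 49.6% of all genes), with medians of -0.05 and 0.05. Scaling to equal sums moved every gene by -0.18 in Gcn2-/- PBS against WT PBS, and Uros and Urod turned to lower values. Only Alas1 and Fech were then higher, so the count in Gcn2-/- PBS depends on the scaling. In Atf4-/- PBS the move was 0.12, and Alas2 turned to a higher value. As deposited, all 9 genes were within 0.43 log2 units of WT PBS, the widest being Alas2 in Gcn2-/- PBS. Of the 9, 0 were called where 1.04% and 1.12% of all genes were. The interval of the difference (the difference with its combined error on either side) for Alas1 still ran from -204 to 360 FPKM in Gcn2-/- and from -230 to 301 in Atf4-/- livers, so that a sizable basal difference could not have been seen.

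**Figure D3:**
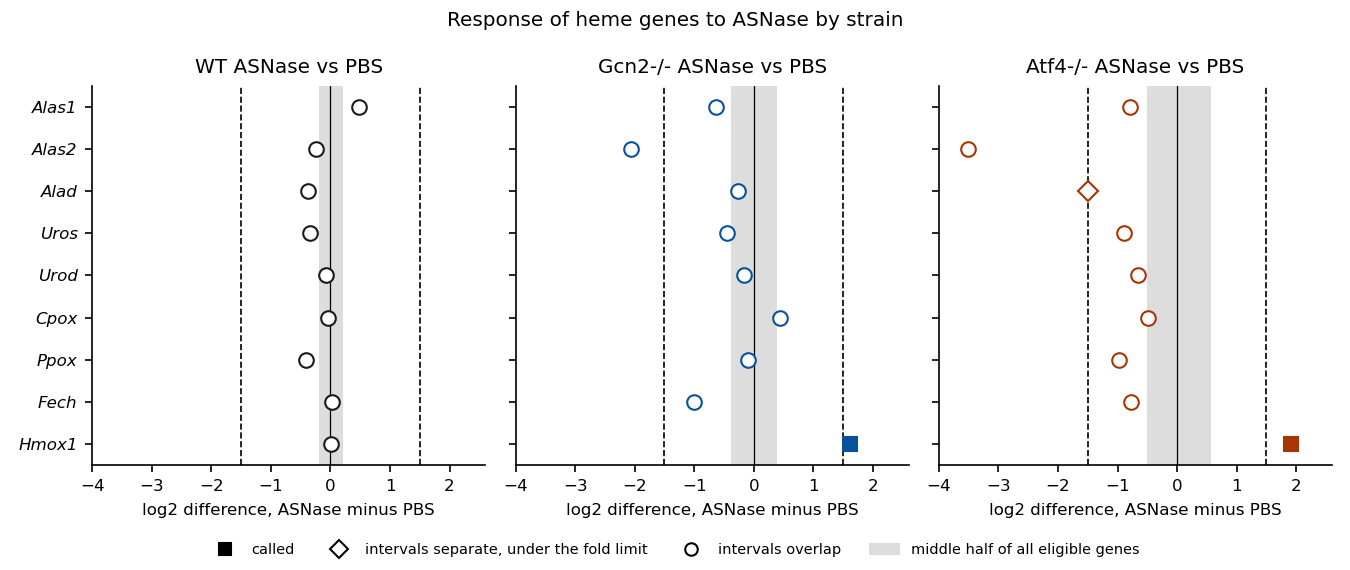
Log2 difference, ASNase minus PBS (x axis), of the 9 genes (y axis) in WT, Gcn2-/- and Atf4-/- livers, with dashed lines at the fold limit of 1.5 and the interquartile range of all eligible genes in grey. Hmox1 is called in Gcn2-/- (1.62) and Atf4-/- (1.91), Alad falls just short in Atf4-/- (-1.496), Alas2 is past the limit with overlapping bounds in both, and no gene is called in WT.

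Hmox1 (ENSMUSG00000005413, chr8:75093621-75100589, plus strand) was the gene of heme breakdown and the only 1 of the 9 that was called. It was at 14.5 FPKM in WT PBS (8.30 to 20.6), 14.6 after ASNase in WT (8.23 to 21.0), 13.0 in Gcn2-/- PBS (7.30 to 18.8) and 14.7 in Atf4-/- PBS (8.27 to 21.0). It was at 40.3 in Gcn2-/- ASNase (23.1 to 57.5) and 55.3 in Atf4-/- ASNase (32.1 to 78.5). The 4 lower groups lay close together, both deletion groups given ASNase lay above all 4 with separate bounds, and these 2 groups overlapped each other.

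After ASNase Hmox1 rose by 1.62 on the log2 scale in Gcn2-/- livers (3.09-fold, a difference of 27.3 FPKM with an interval from 9.13 to 45.4). It rose by 1.91 in Atf4-/- livers (3.77-fold, 40.6 FPKM with an interval from 16.6 to 64.7). In WT livers the difference was 0.02, with an interval from -8.72 to 9.05 FPKM. Among all genes tested 3.69% were called in Gcn2-/- and 7.37% in Atf4-/- livers, 1.56% and 2.74% in the higher direction, against 0.881% called in WT, so 1 call among 9 genes is of the order of the background in the deletion strains. Under ASNase it was 1.91 above WT in Atf4-/- livers and was called, as were 8.25% of genes. In Gcn2-/- livers it was 1.46 above WT, with separate bounds but under the fold limit, where 4.41% of genes were called and 4.87% had separate bounds. The difference between the strains' responses was not tested.

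The Hmox1 level relative to Alas1 is given as a description only, since the Alas1 bounds overlapped in all 15 pairs of groups. It was between 3.62% and 5.13% of Alas1 in the 4 groups of low Hmox1, 17.3% in Gcn2-/- ASNase and 30.2% in Atf4-/- ASNase. Genes nearest in pattern to Hmox1 were Caskin2, Eif1a, Ets2, Lrrc59 and Mvp, at distances from 0.103 to 0.131. Eif1a, a translation initiation factor gene, read 28.4, 26.0, 28.5, 80.2, 26.2 and 113 FPKM in the same order of groups as above.

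The other genes of heme breakdown were not called in any comparison, where between 0.881% and 8.25% of all genes were, so that this is near the background. Hmox2, the constitutive oxygenase, was at 41.0 to 45.6 FPKM in all groups but Atf4-/- ASNase, where it was at 71.5. Blvra, a biliverdin reductase, lay between 10.4 and 16.2 FPKM. Blvrb, which reduces biliverdin and flavins, was at 134, 114, 97.5, 68.3, 110 and 60.9 FPKM in the order used above. Ugt1a1, which conjugates bilirubin for excretion, was at 268 FPKM under PBS and 141 after ASNase in Gcn2-/- livers, and lay between 289 and 354 in the other groups.

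Targets of NRF2, a factor known to induce Hmox1, were read beside it. Of 17 genes in the list, 14 or 15 of them eligible, none was called higher in any comparison. After ASNase 1.56% (Gcn2-/-) and 2.74% (Atf4-/-) of all genes tested were called higher, so that this is near the background. In Gcn2-/- livers 4 of 15 eligible genes fell after ASNase, namely Gclc, Osgin1, Gstm1 and Me1, with a list median of -1.20, where 2.13% of all genes tested were called lower. In Atf4-/- livers 2 of 14 fell, Gclc and Aox1, with a median of -0.84, where 4.63% of all genes were called lower. Gclc, the catalytic subunit of the first step of glutathione synthesis, fell from 68.0 to 21.5 FPKM in Gcn2-/- and from 72.3 to 16.8 in Atf4-/- livers, and was at 70.8 and 65.5 in WT. Gstm1, a glutathione transferase, fell from 891 to 176 in Gcn2-/- livers. Values that were higher after ASNase, all with overlapping bounds, were those of Srxn1, Txnrd1 and Fth1 in both deletion strains and of Nqo1 in Atf4-/- livers. Srxn1, which repairs peroxiredoxins, was at 13.4 under PBS and 25.8 after ASNase in Atf4-/- livers and at 16.9 and 21.1 in Gcn2-/- livers. Txnrd1, a thioredoxin reductase, was at 36.5 and 46.2 in Atf4-/- and at 32.2 and 38.6 in Gcn2-/- livers. The classical target Nqo1 was at 2.94 and 3.72 in Atf4-/- livers, and at 6.78 and 3.46 in Gcn2-/- livers. Against WT ASNase, 6 of 15 genes of the list were lower by the rule in each deletion strain, where 4.41% (Gcn2-/-) and 8.25% (Atf4-/-) of all genes were called in either direction. Under PBS, 2 of 15 (Gsta1 and Me1) were already called lower in Atf4-/- than in WT livers, and 0 of 15 in Gcn2-/- livers. There 1.12% and 1.04% of all genes were called in either direction. The ferritin genes Fth1 and Ftl1, which store the iron that heme oxygenase frees, were not called, and Ftl1 was at 1183 and 943 FPKM in the ASNase groups of Gcn2-/- and Atf4-/- mice against 2540.1 and 1552 under PBS.

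Since Kupffer cells are a known site of Hmox1, 11 macrophage genes were read beside it. Their sum was 412 FPKM in WT PBS against 227 after ASNase, 269 in Gcn2-/- PBS against 337 after ASNase, and 459 in Atf4-/- PBS against 314 after ASNase. Without Marco, a choice made after seeing the data, the other 10 genes summed to 260 in Gcn2-/- PBS against 219 after ASNase, so that the direction of the Gcn2-/- sum rests on this gene. Marco, a scavenger receptor, rose from 8.32 to 118 FPKM in Gcn2-/- and from 9.22 to 67.3 in Atf4-/- livers, and was at 5.69 and 3.45 in WT. Cd5l fell in Atf4-/- livers (91.6 to 31.3), and the Kupffer marker Clec4f was at 15.9 and 30.1 FPKM in the Gcn2-/- and Atf4-/- ASNase groups against 67.3 and 102 under PBS, without a call. C1qa, C1qb and C1qc were not called in any comparison. Marco was the 1 gene of the list called higher after ASNase in either deletion strain, where 1.56% (Gcn2-/-) and 2.74% (Atf4-/-) of all genes were. After ASNase 11 of 11 genes had a lower value in WT livers (median -0.77), where 51% of all genes did, and 4 of 11 in Gcn2-/- livers, where 48.5% did. The 7 genes with a higher value in Gcn2-/- livers were Marco and 6 others, among them Adgre1 (the F4/80 antigen) at 12.9 FPKM (7.60 to 18.1) against 5.17 (2.88 to 7.46), with separate bounds but under the fold limit. In Atf4-/- livers 9 of 11 had a lower value, where 46.2% of all genes did, and Adgre1 was at 4.56 against 10.9. Under ASNase, 2 of 10 eligible genes were called higher in Atf4-/- than in WT livers, where 8.25% of all genes were called in either direction. They were Marco and Cd163, a hemoglobin scavenger receptor (11.4 against 3.68 FPKM). Marco, 1 of 11 eligible genes, was also called higher in Gcn2-/- than in WT livers under ASNase, where 4.41% of all genes were called. The highest Marco level was in Gcn2-/- ASNase and the highest Hmox1 level in Atf4-/- ASNase. The part of macrophages in the Hmox1 level was not tested. Neutrophil transcripts were few and were lower in value after ASNase in each strain, with 6 genes summing to 8.33 FPKM under PBS and 5.76 after ASNase in WT, 11.8 and 1.36 in Gcn2-/- and 16.3 and 6.51 in Atf4-/- livers. S100a9 was called lower in Gcn2-/- ASNase (0.171 FPKM) than in its PBS group (5.64) and than in WT ASNase (3.19).

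**Figure D4:**
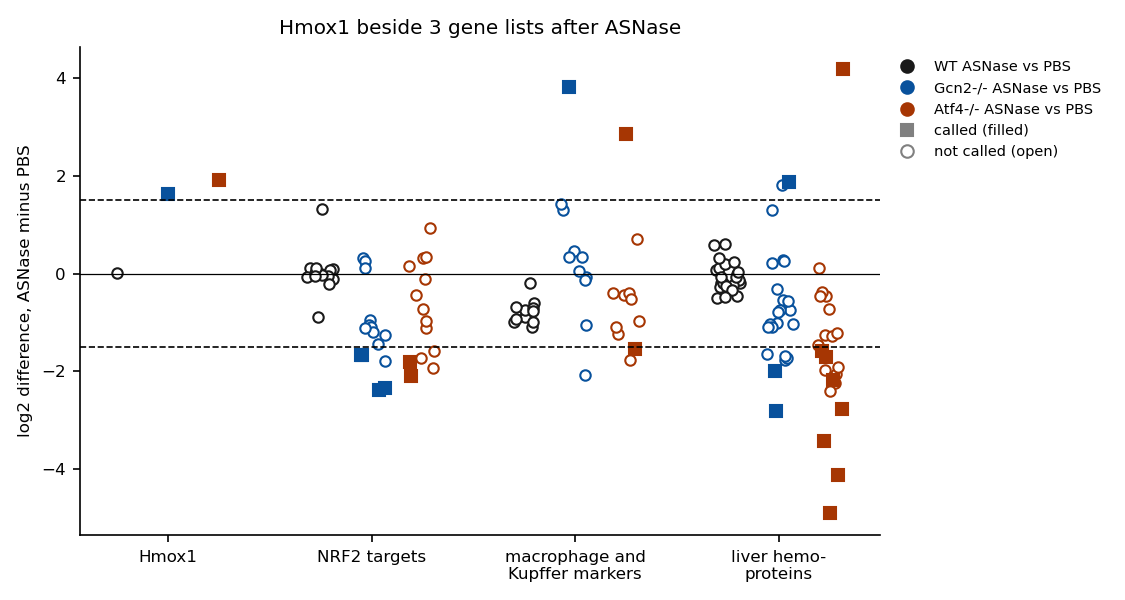
Log2 difference, ASNase minus PBS (y axis), of Hmox1 and of each eligible gene of 3 lists (x axis) in the 3 strains, with filled squares for called genes and dashed lines at the fold limit of 1.5. No NRF2 target is called higher, near the share of all genes that are (1.56% in Gcn2-/- and 2.74% in Atf4-/- livers). Marco is the called macrophage gene with a higher value in both deletion strains, and 7 hemoprotein genes are called lower in Atf4-/- livers.

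Genes of heme, porphyrin and mitochondrial glycine transport were compared in a list of 14 genes, of which 11 or 12 were eligible. None of these was called in any comparison, where between 0.881% and 8.25% of all genes were, and Flvcr1 and Flvcr2 were under 3 FPKM in every group and could not be called. Slc25a38, which brings glycine into the mitochondrion, lay between 13.4 and 20.9 FPKM. Slc25a39, a mitochondrial glutathione carrier, was at 704 FPKM in Atf4-/- ASNase against 208 under PBS, a log2 difference of 1.76 with overlapping bounds, and between 254 and 320 in the other strains. Abcb10, a mitochondrial transporter needed for hemoglobin synthesis, was at 3.34 against 10.7 in Atf4-/- livers (-1.65, bounds overlapping). Hebp1, a heme-binding protein, was at 110 against 246 FPKM in Gcn2-/- and 76.7 against 193 in Atf4-/- livers. Hpx, which carries heme in plasma, had no estimate in these 2 ASNase groups.

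The proteins that take up heme were compared last, in a list of 23 liver hemoprotein genes, in which Ncf1 codes for an oxidase subunit that carries no heme itself. None was called after ASNase in WT, where 0.881% of all genes tested were, so that this is near the background. The list median in WT was -0.11. In Gcn2-/- livers 2 of 23 eligible genes fell, Cyp1a2 and Cyp8b1, and Cybb rose, with a median of -0.78 (-0.89 without Ncf1, chosen after seeing the data), where 2.13% of all genes were called lower and 1.56% higher. In Atf4-/- livers 7 of 22 fell (Cyb5b, Cyp1a2, Cyp2f2, Cyp3a25, Cyp4a14, Cyp8b1 and Suox) and Cyp2b10 rose, with a median of -1.65, where 4.63% of all genes were called lower and 2.74% higher. Cyp8b1, which makes cholic acid, fell from 58.2 to 8.22 FPKM in Gcn2-/- and from 56.3 to 1.81 in Atf4-/- livers. It was already called lower under PBS in both deletion strains than in WT (201 FPKM). Cyp2f2, a monooxygenase, fell from 506 to 29.2 in Atf4-/- livers. Cyp2b10, the drug-induced P450, rose from 2.63 to 49.1 in Atf4-/- livers, where its PBS level was below WT (15.3). Cybb, the heme-bearing subunit of the phagocyte oxidase, rose from 2.56 to 9.68 in Gcn2-/- livers. Catalase (Cat) was at 284 against 961 FPKM in Gcn2-/- and 219 against 905 in Atf4-/- livers, without a call. The hemoprotein median in Atf4-/- livers was thus lower than that of the 8 synthesis genes (-0.84), and a direct test of these lists against each other was not made. The hepatocyte markers given above had a median of -0.99 in Gcn2-/- and -0.67 in Atf4-/- livers.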

How the data were processed

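RNA-Seq was read from 18 mouse livers in 6 groups of 3, grouped by their labels. Per the labels and the study's methods, the authors prepared poly-A libraries with a kit that does not mark strand, aligned the single-end reads by TopHat to mm10 and estimated expression with Cuffdiff. The deposited values are FPKM, with lower and upper bounds also in FPKM and a status, 1 set per group, and 0 columns were left unmapped. Reads per gene and values of single livers were not used here, so precision was taken from the bounds, which lay a median of 51.3% to 54.2% of the value away for genes over 3 FPKM. No p-value, SD or left-out animal could be computed. The linear model on values per library that had been set as the first choice was replaced by the rule on FPKM (over 3), log2 difference (over 1.5, pseudocount 0.1) and separate bounds, applied to the whole table. Of all values, 160 lacked the status OK. Exact zeros were not read as absence.

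The members and gene lists were chosen with earlier results of these data known. All members were named, with called genes of the lists, abundant genes of each list and the 5 genes nearest in pattern to Alas1, Alas2 and Hmox1. Further list genes named for their roles (such as Nqo1, Abcb10, Klf1 and Clec4f) were chosen after their values were seen. Gene positions are from GENCODE M21 on GRCm38 and promoter sequences from RefSeq (GRCm38.p6). The rule was first tested on simulated data with known changes. Python 3.11.15, pandas 2.3.3 and numpy 2.4.6 were used. Some genes of the lists are not reported here.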

Additional observations from a re-analysis of the deposited data

How the results depend on the processing

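The calls on the 9 genes were repeated with a pseudocount of 1, a minimum of 1 FPKM, a log2 limit of 1, no condition on the bounds, the combined error in place of separate bounds, genes listed at 0 kept, scaling by median ratios and scaling to equal sums. Hmox1 was called under all 8 in Gcn2-/- and Atf4-/- ASNase against PBS and in Atf4-/- against WT under ASNase, and no gene was called in WT or under PBS. Calls added by other settings were as follows. In Gcn2-/- ASNase against PBS the count went from 1 to 2 without the condition on bounds (Alas2). In Atf4-/- ASNase against PBS it went from 1 to 2 with Alas2 (no condition, or combined error) or with Alad (log2 limit of 1, median ratios, equal sums). In Gcn2-/- against WT under ASNase it went from 0 to 1 with Hmox1 (log2 limit of 1) or Alas2 (no condition, or combined error). In Atf4-/- against WT under ASNase it went from 1 to 2 with Alad (log2 limit of 1) or Alas2 (no condition, or combined error), and to 3 with both (equal sums). The added calls of Alas2 without the condition on bounds, and of Alad and Hmox1 at a log2 limit of 1, follow from how these settings are built. Of 504 member differences under alternatives, 14 became calls, none was lost, and 10 differences that were never called changed sign, 2 of them under median ratios and 8 under equal sums, in Urod, Uros, Cpox, Ppox and Alas2.

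Counts over all genes moved by over 1.5 times without the condition on bounds, in the order of WT, Gcn2-/- and Atf4-/- ASNase against PBS (134, 607 and 1160 in place of 80, 340 and 699), Gcn2-/- and Atf4-/- against WT under PBS (181 and 180 in place of 93 and 101) and under ASNase (723 and 1276 in place of 416 and 790), and with genes listed at 0 kept in WT and under PBS (179, 192 and 182). Equal sums shifted the median log2 difference of all genes by 0.15, 0.22 and -0.28 for ASNase against PBS (WT, Gcn2-/- and Atf4-/-), by -0.18 and 0.12 for Gcn2-/- and Atf4-/- against WT under PBS, and by -0.10 and -0.31 under ASNase. It moved the share of higher calls from 42.4% to 60.9% (Gcn2-/- ASNase against PBS), from 37.2% to 21.2% (Atf4-/-), from 37.6% to 25.9% (Gcn2-/- against WT under PBS) and from 31.4% to 18.0% (Atf4-/- against WT under ASNase). Keeping genes listed at 0 moved that share from 31.7% to 43.4% in Atf4-/- against WT under PBS. Genes nearest in pattern by Pearson's r were mostly others (for Alas2, Ptk2b came first, and for Hmox1, Elf3), and the alpha globins lay close to Alas2 by that measure (0.984 and 0.985). No paired analysis was possible because each group had 1 pooled value, and no animal could be left out in turn for the same reason.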

Other observations

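Regulators of the heme genes were examined in a list of 20. Nr1d1, a heme-binding nuclear receptor of the circadian clock, fell after ASNase in Gcn2-/- livers from 46.6 to 9.33 FPKM and was at 33.3 and 38.1 in WT livers. In Atf4-/- livers it was at 37.8 under PBS and 13.6 under ASNase, without a call. Lonp1, the mitochondrial protease that degrades ALAS1 protein, rose in Atf4-/- livers from 50.1 to 149 FPKM and lay between 44.7 and 58.7 in the other groups. The genes for BACH1 and NRF2 (Bach1 and Nfe2l2) were not called in any comparison. Bach1 lay between 6.09 and 16.5 FPKM and Nfe2l2 between 29.7 and 39.5. Mafk, a small MAF partner of both, was at 14.9 FPKM in Atf4-/- ASNase and between 4.80 and 6.03 in the other groups, without a call. After ASNase, of the eligible genes of the list, 0 of 17 were called in WT and 1 of 17 in Gcn2-/- livers, beside 0.881% and 3.69% of all genes tested.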
